A study of Mus musculus with 24 samples.

Results

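The genes described here encode the scaffold and priming proteins of the presynaptic active zone: Bsn, Pclo, Rims1, Rims2, Unc13a, Unc13b, Erc1, Erc2, Ppfia3 and Rimbp2. They were named by function around Bsn, which had been chosen by its call in the average transgene comparison of these same libraries. They are 10 of the 52352 genes to which transcripts were matched and 10 of the 18239 genes that passed the filter on low counts, so every member passed it. Poly-A RNA of the frontal cortex was sequenced from 24 mice, 6 per genotype with 3 of each sex. The genotypes were Grn+/- with the hTDP transgene (human TDP-43), Grn+/- without it, Grn+/+ with the transgene and Grn+/+ without it, all littermates of crosses between Grn+/- and hTDP mice. Ages were 9.44 to 10.07 months in both transgenic groups, 8.19 to 10.79 months in nontransgenic Grn+/- mice and 9.44 to 10.79 months in nontransgenic Grn+/+ mice. The sources used here do not name the promoter driving the transgene or the mouse strain. All mice were perfused with saline under pentobarbital, and each library is a separate mouse. The series title asks whether progranulin insufficiency and TDP-43 overexpression act on each other.

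The active zone is the patch of presynaptic membrane where synaptic vesicles dock, are primed and fuse. Bassoon (Bsn) and piccolo (Pclo) are giant, related scaffold proteins that mark the zone and hold vesicles near it. RIM proteins (Rims1, Rims2) bind vesicles through Rab3, recruit calcium channels with the RIM-binding protein (Rimbp2) and activate Munc13 (Unc13a, Unc13b), which opens syntaxin to prime vesicles for release. ELKS proteins (Erc1, Erc2) and liprin-alpha-3 (Ppfia3) link these partners together.

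Libraries held 61445842 to 100859149 estimated reads, and a member had between 2877 reads (Unc13b) and 72777 reads (Bsn) in a library. The labels were checked first. Grn had a mean of 26.3 ± 5.5 CPM in the Grn+/- genotypes, against 49.4 ± 7.6 CPM in the Grn+/+ genotypes (SD, n = 12 each; CPM is reads scaled to a common library size after TMM adjustment). Human TARDBP had 4328 to 8162 reads in transgenic libraries and 0 to 2 in the others. The 11 excitatory neuron markers used for the tissue check, Slc17a7 among them, were all detected, with a summed level of 5446 to 6788 CPM over all libraries. Transgenic Grn+/+ mouse 2 stood apart, listing 40188 transcripts above 0 where each of the remaining libraries listed 65994 to 69846, and calls that depend on it are given with and without it.

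The members differed several-fold in abundance per length. In TPM, a length-corrected level summed over a gene's transcripts, Unc13a, Bsn and Ppfia3 were highest in nontransgenic Grn+/+ mice, at 135.5 ± 9.9, 133.4 ± 11.5 and 127.7 ± 3.6 TPM (SD, n = 6), and the ranges of neighbours in this order overlapped. Rims1 (76.0 ± 7.5 TPM), Rimbp2 (70.2 ± 7.8 TPM) and Erc2 (67.1 ± 2.6 TPM) came next, again with overlapping ranges. Rims2 followed at 61.4 ± 1.7 TPM and Pclo at 44.1 ± 6.3 TPM, each without overlap with the genes next to it in this order. The range of Rims2 (59.3 to 63.6 TPM) did overlap that of Rimbp2 (60.5 to 79.3 TPM). Unc13b (20.8 ± 1.4 TPM) and Erc1 (20.5 ± 1.2 TPM) were lowest and overlapped. In transgenic mice Bsn averaged 113.5 ± 13.5 TPM in Grn+/- and 111.0 ± 8.5 TPM in Grn+/+ mice. Ppfia3 was at 126.0 ± 7.7 TPM in transgenic Grn+/- mice and 124.3 ± 12.4 TPM in transgenic Grn+/+ mice, above the Bsn means there, with overlapping ranges.

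Bsn and Pclo share very long main transcripts, while the other features given here differ between them. Bsn lies on the minus strand of chromosome 9 (GRCm38, chr9:108096022-108190384) and Pclo on the plus strand of chromosome 5 (chr5:14514918-14863459). Their most abundant transcripts, Bsn-201 of 15938 bases in 12 exons and Pclo-202 of 16846 bases in 20 exons, are as long as or longer than the main transcripts of all but 40 (Bsn) and 26 (Pclo) of the 18239 genes tested, whose median is 2794 bases. Main transcripts of the other members ran from 3685 bases (Rims2) to 10255 bases (Unc13a). The GC content of Bsn-201 is 59.8%, against 47.9% for Pclo-202. The start regions of Bsn and Pclo are shown because these genes moved together across libraries, as described further on. A part of the start regions in that was not tested. The windows run from 250 bases before to 50 after the RefSeq start (GRCm38.p6). They lie at chr9:108190334-108190633 on the minus strand for Bsn and chr5:14514668-14514967 on the plus strand for Pclo. Capitals mark matches, on either strand, to CGCATGCG, the core of the site bound by NRF1, or to GGGCGG, the GC box bound by Sp1. These motifs do not overlap each other.
Bsn start region: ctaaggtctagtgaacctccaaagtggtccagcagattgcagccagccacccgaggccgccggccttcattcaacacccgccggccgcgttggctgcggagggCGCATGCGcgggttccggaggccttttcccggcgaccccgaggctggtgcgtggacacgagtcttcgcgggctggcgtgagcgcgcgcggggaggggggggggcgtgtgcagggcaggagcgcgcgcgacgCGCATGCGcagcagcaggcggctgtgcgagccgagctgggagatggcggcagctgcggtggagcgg
Pclo start region: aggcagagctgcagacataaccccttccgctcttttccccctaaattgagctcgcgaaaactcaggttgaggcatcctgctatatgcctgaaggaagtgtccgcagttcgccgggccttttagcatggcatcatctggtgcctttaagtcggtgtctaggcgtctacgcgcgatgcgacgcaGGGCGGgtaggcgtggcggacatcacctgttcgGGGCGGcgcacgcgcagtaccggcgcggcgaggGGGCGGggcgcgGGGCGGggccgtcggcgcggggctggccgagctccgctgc
The Bsn window held CGCATGCG 2 times and no GGGCGG, and the Pclo window held GGGCGG 4 times and no CGCATGCG. Of 32851 RefSeq windows of this length, 1.87% held CGCATGCG and 35.7% held GGGCGG. CGCATGCG was in none of the other 7 member windows in that table, and GGGCGG was in 6 of them (all but Rimbp2). A match is a description of letters, not a bound site.

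Bsn was lower in transgenic cortex, the pattern it was chosen for. In transgenic Grn+/- mice it had 827 and 814 CPM at 9.44 months and 605, 721, 611 and 717 CPM at 10.07 months. Nontransgenic Grn+/- mice had 957 and 929.7 CPM at 8.19 months, 874 CPM at 9.14, 808 CPM at 9.44, 751 CPM at 10.56 and 736 CPM at 10.79 months. The ranges of these groups overlapped, and the youngest nontransgenic mice were the highest. In transgenic Grn+/+ mice Bsn had 708, 726 and 730.2 CPM at 9.44 months and 700.3, 648 and 669.9 CPM at 10.07 months. Nontransgenic Grn+/+ mice had 980.0, 886 and 867 CPM at 9.44 months, 803 and 866 CPM at 10.07 months and 793 CPM at 10.79 months. In the Grn+/+ background every transgenic mouse was thus below every nontransgenic mouse.

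**Figure D1:**
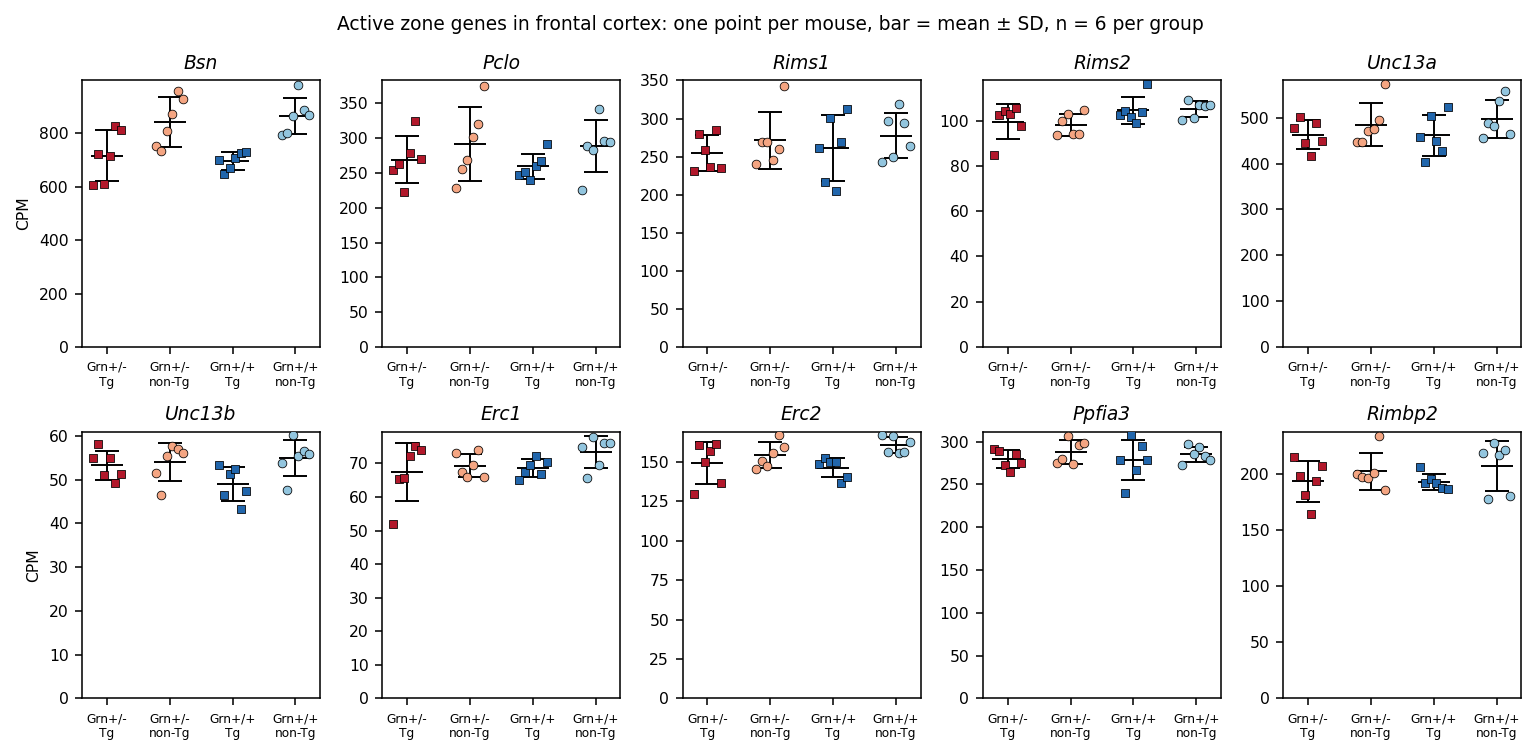
Level of each active zone gene in CPM (vertical axis, from 0) in the 4 genotypes, with a point per mouse and the mean ± SD (n = 6 each; Tg, transgenic). Bsn in transgenic Grn+/+ mice lay at 648 to 730.2 CPM, below the 793 to 980.0 CPM of nontransgenic Grn+/+ mice, while most other members overlapped between genotypes.

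On average over the Grn backgrounds, Bsn was at 706 ± 68.4 CPM in transgenic and 854 ± 78.1 CPM in nontransgenic mice (SD, n = 12 each). The log2 change was -0.28 (SE 0.05), or -17.4%, with the adjusted p of 0.0373 (edgeR's quasi-likelihood test) that selected it. By background the log2 change of Bsn was -0.24 (SE 0.08) in Grn+/- and -0.31 (SE 0.08) in Grn+/+ mice. Of the 10 members, 1 was called on average, beside 0.11% of all genes, and none in either background, beside 0.0219% in Grn+/- and 0.0329% in Grn+/+ mice. These counts follow from how Bsn was chosen and nothing is read from them. The average call was lost when any of 18 of the 24 libraries was left out, and kept without nontransgenic Grn+/- mouse 1 or 2, nontransgenic Grn+/+ mouse 1, transgenic Grn+/+ mouse 5 or transgenic Grn+/- mouse 5 or 6. Without transgenic Grn+/+ mouse 2 the log2 change was -0.26 with an adjusted p of 0.0578, and over all 24 omissions it ran from -0.30 to -0.25 with adjusted p from 0.0157 to 0.0948.

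The partner scaffold Pclo was at 264 ± 26.3 CPM in transgenic and 290.0 ± 43.5 CPM in nontransgenic mice, a log2 change of -0.14 (SE 0.07). For the other members the transgene log2 change ran from -0.09 (Unc13b and Erc2 among them) to 0.01 (Rims2), each with an SE of 0.03 to 0.07. In all, 9 of 10 members were below 0, with a median of -0.09, beside 48.4% of all genes below 0 and a median of 0.00. Bsn, chosen by its call in this comparison, is among the 9. Among non-member genes of at least 10 CPM, 1571 of 2233 with main transcripts of 4 to 6 kb were below 0. At 6 to 8 kb it was 718 of 915. Over all 38 settings 9 or 10 members were below 0, and with upper-quartile scaling the median of all genes was 0.01. Erc2, an ELKS protein that binds RIM, was the other member without overlap in the Grn+/+ background, at 137 to 152 CPM in transgenic and 156 to 167 CPM in nontransgenic mice. Its groups overlapped in Grn+/- mice, at 130.0 to 161 CPM in transgenic and 146 to 167 CPM in nontransgenic mice. Transgenic levels lay wholly below nontransgenic ones for 0.307% of all genes in Grn+/+ mice (2 members), 0.115% in Grn+/- mice (no member) and 0.0274% over 12 against 12 mice (no member). Bsn is among these 2 members and was chosen on these libraries, so nothing is read from the counts. In bulk tissue, fewer cells of a type and less RNA per cell cannot be told apart.

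Loss of a Grn copy was not accompanied by a detectable change in the active zone genes. Bsn averaged 779 ± 111 CPM in the Grn+/- genotypes, against 781 ± 101 CPM in the Grn+/+ genotypes (SD, n = 12 each), a log2 change of -0.00 (SE 0.05; from -0.11 to 0.11 at 2 SE on either side). None of the 10 members was called, beside 0.0219% of all genes (4 of 18239), and their log2 changes ran from -0.08 to 0.05. The smallest p was that of Rims2, the RIM paralog, with 98.9 ± 6.3 CPM in the Grn+/- genotypes, against 104.9 ± 4.7 CPM in the Grn+/+ genotypes, a log2 change of -0.08 (SE 0.03; edgeR adjusted p = 0.926). The ranges of Rims2 overlapped between these genotypes.

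Nor did the transgene effect differ detectably between Grn backgrounds. The interaction subtracts the transgene effect found in Grn+/+ mice from the effect in Grn+/- mice, and was 0.07 for Bsn (SE 0.11, from -0.14 to 0.29 at 2 SE on either side) on the log2 scale. Its largest value among members was 0.14 (SE 0.09) for Unc13b, a Munc13 paralog, which lay at 49.2 to 58.0 CPM in transgenic and 46.4 to 57.7 CPM in nontransgenic Grn+/- mice. In Grn+/+ mice Unc13b lay at 43.2 to 53.3 CPM in transgenic and 47.7 to 60.1 CPM in nontransgenic mice. No member was called (the edgeR adjusted p of every member rounded to 1), and neither was any gene of the table (0% called by edgeR, 434 genes at an unadjusted p under 0.05, 3 genes called by DESeq2). The upper limit for Bsn allows a fall weaker in Grn+/- mice by about the size of either effect, and the lower limit a fall deeper by 0.14. With age as a term, the transgene log2 change of Bsn was -0.16 (SE 0.05) in Grn+/- and -0.33 (SE 0.05) in Grn+/+ mice. Without the mice of 8.19 months, both nontransgenic Grn+/-, it was -0.15 (SE 0.08) and -0.31 (SE 0.07). Over the 37 alternatives the Bsn interaction ran from -0.01 to 0.18 and was never called.

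**Figure D2:**
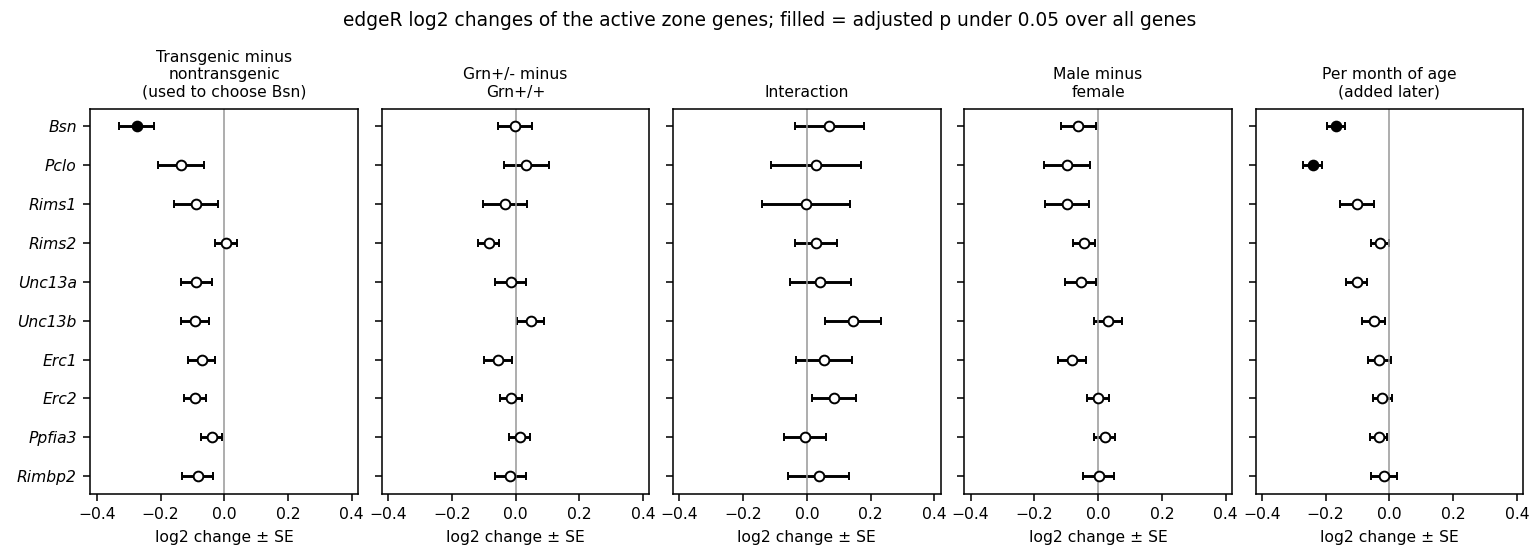
log2 change with its SE (horizontal axis) for each member in 5 comparisons; filled points have an adjusted p under 0.05 over all genes. Bsn is filled for the transgene (-0.28), the comparison it was chosen from, and Bsn (-0.17) and Pclo (-0.24) are filled per month of age.

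Sex made no detectable difference either. Bsn averaged 764 ± 106 CPM in male and 796 ± 105 CPM in female mice (SD, n = 12 each), a log2 change of -0.06 (SE 0.05) for male minus female. No member was called, beside 0.0713% of all genes, and the smallest adjusted p of a member was 0.843 (edgeR; Erc1, log2 change -0.08, SE 0.04). The transgene effect on Bsn in males minus that in females was -0.10 (SE 0.09), again with no member called and 0% of all genes (749 at an unadjusted p under 0.05, and 2 called by DESeq2).

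Bsn and Pclo both fell with age among these adult mice. Age was added as a comparison after the data had been seen, as a linear term per month beside genotype and sex. Pclo fell by 0.24 per month on the log2 scale (SE 0.03, edgeR adjusted p = 0.00177), the smallest p of all 18239 genes, and Bsn fell by 0.17 (SE 0.03, edgeR adjusted p = 0.0241). In nontransgenic Grn+/- mice, the group with the widest spread of ages, Pclo was at 321 and 375 CPM at 8.19 months, 301 CPM at 9.14, 269 CPM at 9.44, 228 CPM at 10.56 and 255 CPM at 10.79 months. Nontransgenic Grn+/+ mice had 341, 296 and 295 CPM at 9.44 months, 289 and 284 CPM at 10.07 months and 226 CPM at 10.79 months. Both transgenic groups span 2 ages, with 325 and 271 CPM at 9.44 months and 254, 263, 223 and 278 CPM at 10.07 months in Grn+/- mice. Transgenic Grn+/+ mice had 260.4, 267 and 292 CPM at 9.44 months and 247, 251.0 and 240.2 CPM at 10.07 months. Straight-line slopes of log2 CPM on age were below 0 in every genotype and ran from -0.36 to -0.21 per month for Pclo and from -0.49 to -0.14 for Bsn.

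**Figure D3:**
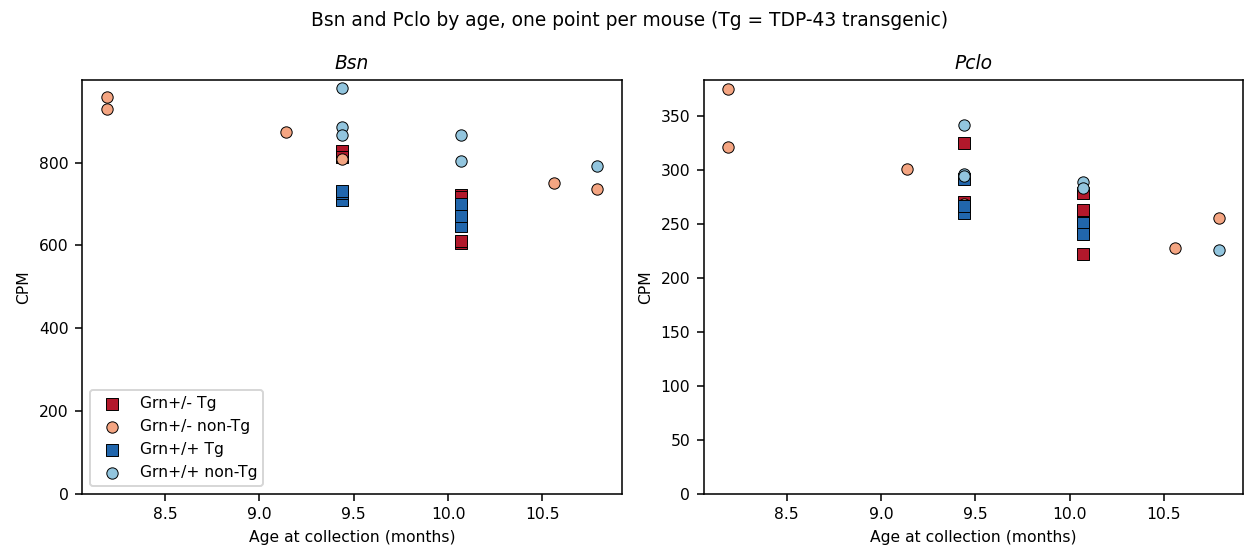
Bsn and Pclo in CPM (vertical axes, from 0) against age in months, with a point per mouse and colour and shape by genotype (Tg, transgenic). Pclo lay at 321 and 375 CPM at 8.19 months and at 226 and 255 CPM at 10.79 months, and the transgenic mice span 9.44 to 10.07 months only.

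Besides Bsn and Pclo, 2 more genes were called for age, Lrp1 (an endocytic receptor) and Dync1h1 (the dynein heavy chain), both lower, giving 0.0219% of all genes beside 2 of 10 members. All 10 members were below 0, with a median of -0.04 per month, beside 48.4% of all genes, and 7 to 10 were below 0 over the 36 settings. Among non-member genes of at least 10 CPM, 1156 of 2233 with main transcripts of 4 to 6 kb were below 0. At 6 to 8 kb it was 601 of 915. Unc13a, the main Munc13 of cortical excitatory synapses, had a log2 change of -0.10 per month (SE 0.03) that did not pass the test (edgeR adjusted p rounding to 1). Among the others, Rims1 was at -0.10 (SE 0.05) and the rest lay between -0.05 and -0.02 per month. The Pclo call held without any 1 library (adjusted p from 0.000723 to 0.0347). The Bsn call did not hold without nontransgenic Grn+/- mouse 1 (adjusted p = 0.154), 2 (0.193) or 5 (0.107), nontransgenic Grn+/+ mouse 1 (0.0689) or 4 (0.0552), or transgenic Grn+/+ mouse 2 (0.0529), while its log2 change stayed between -0.19 and -0.16 per month. Without both mice of 8.19 months the changes were -0.19 for Bsn (adjusted p = 0.23) and -0.25 for Pclo (adjusted p = 0.0591). Mice of the same age may share a litter, a cage or a day of collection, and these cannot be told apart from age. With age in the model, the transgene log2 change of Bsn was -0.24 with an SE of 0.03, against 0.05 without it.

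The lower level of Bsn and Pclo ran beside a trend over transcript length that was seen in genes of many functions. Among genes of at least 10 CPM, members left out, the median transgene log2 change was 0.03 for main transcripts under 2 kb (2165 genes), -0.02 for 4 to 6 kb, -0.05 for 8 to 10 kb and -0.07 at 12 kb and over (126 genes, 108 of them below 0). The median age change per month was 0.00, -0.00, -0.02 and -0.08 in the same classes, with 119 of the 126 longest below 0. None of these 126 genes had a transgene log2 change below that of Bsn, and 6 had one below that of Pclo. Bsn was chosen by its call in that comparison, so nothing is read from its place there. For age, none was below Pclo and 6 were below Bsn. The other 6 genes of smallest p for age among the first 8 were Lrp1, Dync1h1, Map1b, Ryr2, Map1a and Herc1, with main transcripts of 10.1 to 16.8 kb. The mean log2 level of the 126 long transcripts per library, members left out, averaged -0.03 ± 0.11 in transgenic and 0.03 ± 0.10 in nontransgenic mice (SD, n = 12 each). With that level as a term, the log2 change of Bsn was -0.19 for the transgene (SE 0.04, adjusted p = 0.062) and -0.10 per month of age (SE 0.03, adjusted p = 0.999), and that of Pclo per month was -0.20 (SE 0.04, adjusted p = 0.524). That term is itself made of genes lower with age and transgene, and the part of transcript length in the result was not tested.

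**Figure D4:**
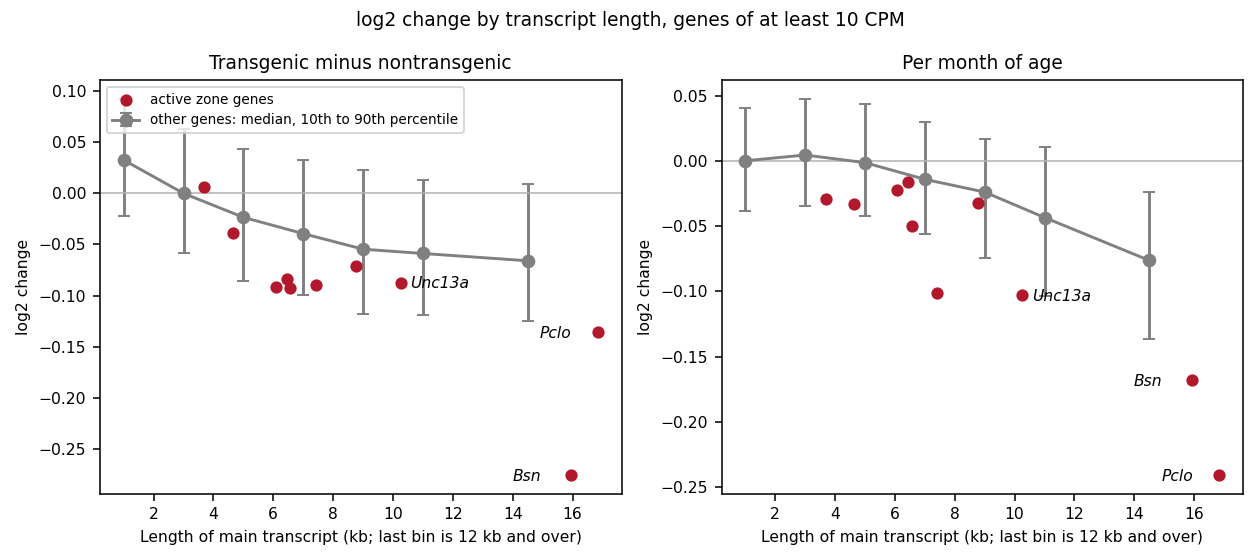
log2 change (vertical axes) against main transcript length in kb, for the transgene and per month of age; grey points are medians of non-member genes in length classes with bars from the 10th to the 90th percentile, and red points are the members. The grey medians reach -0.07 and -0.08 at 12 kb and over, where Bsn (-0.28, -0.17) and Pclo (-0.14, -0.24) lie below them. Bsn was chosen by its transgene change, so its place in that panel follows from the choice.

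Bsn reads were divided by Salmon between a full-length and a short transcript. Bsn-202 has 7496 bases, is annotated without a known 5′ start, and begins after the first 8265 bases of Bsn-201, inside its giant exon 5 (6642 bases, chr9:108109885-108116526). It differs by skipping the last 177 bases of that exon. The junction is shown because it is the stretch of Bsn-202 that Bsn-201 lacks: of 7466 words of 31 bases in Bsn-202, 27 are absent from Bsn-201. Lower case is the last 20 bases before the splice point (chr9:108110062-108110081), and capitals are the next 20, from chr9:108108167-108108186 in Bsn-202 and chr9:108110042-108110061 in Bsn-201, 5′ to 3′ on the minus strand (GENCODE M21).
Bsn-202: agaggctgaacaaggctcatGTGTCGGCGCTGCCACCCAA
Bsn-201: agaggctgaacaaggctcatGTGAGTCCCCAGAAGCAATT
Reads elsewhere in Bsn-202 fit both transcripts, so the split rests mainly on coverage along the gene. Bsn-201 was assigned 474 ± 95.1 CPM in transgenic and 621 ± 65.7 CPM in nontransgenic mice (SD, n = 12 each). Bsn-202 was assigned 232 ± 68.8 CPM in transgenic and 234 ± 27.8 CPM in nontransgenic mice. The short transcript thus took 33.1% ± 10.8 of Bsn reads in transgenic and 27.4% ± 2.8 in nontransgenic mice, most of all in transgenic Grn+/- mouse 1 (60.6%), against 23.4% to 40.1% in the other libraries.

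The share of Bsn-202 moved with a property of the library. In Pclo, the short Pclo-204, also annotated without a 5′ start, took 49.5% ± 15.9 of the reads it shares with Pclo-202 in transgenic and 38.4% ± 4.8 in nontransgenic mice. Over the 24 libraries, after subtracting group means, the shares of Bsn-202 and Pclo-204 had a Pearson r of 0.97. An index was made from 65 other genes that have a long transcript and a shorter one with the same 3′ end: the log2 odds of reads given to the short one, set against each gene's mean over libraries, with the median taken over genes. Its r with the Bsn-202 share was 0.97, and its values averaged 0.15 ± 0.34 in transgenic and -0.11 ± 0.11 in nontransgenic mice. All 5 libraries with an index above 0.2 were transgenic: Grn+/- mice 1 (0.91) and 6 (0.53) and Grn+/+ mice 2 (0.32), 5 (0.38) and 6 (0.31). Bsn-202 was assigned 234 to 367 CPM in these 5 and 163 to 208 CPM in the other transgenic libraries. All of these points share library preparation and depth, and r is given as a description. After the same subtraction of group means, the gene-level value of Bsn had an r of -0.26 with its short share and -0.15 with the index. An r of this kind leaves out differences between genotypes, so it does not bear on the lower Bsn level of transgenic mice. Without these 5 libraries the transgene log2 change of Bsn was -0.27 (SE 0.06, adjusted p = 0.257), and with the index as a term it was -0.26 (SE 0.06, adjusted p = 0.333). When reads were re-expressed as length-scaled TPM, a scale that depends on the split between transcripts, it was -0.21 (SE 0.06, adjusted p = 0.411).

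**Figure D5:**
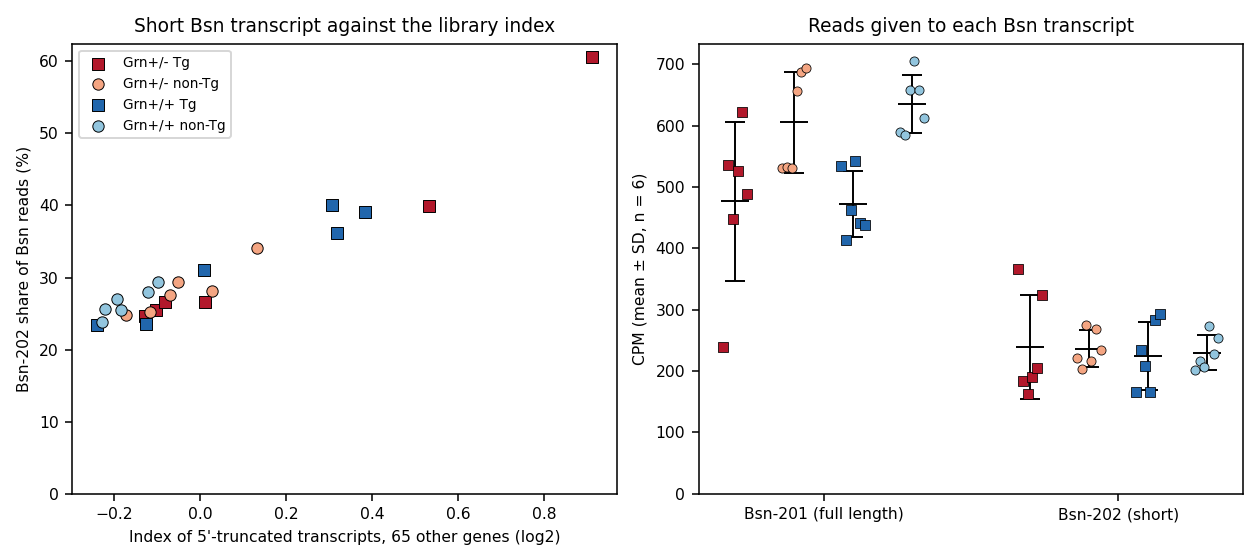
Left, the Bsn-202 share of Bsn reads (percent, from 0) against the library index of 5′-truncated transcripts from 65 other genes (log2), with a point per mouse. Right, CPM given to Bsn-201 and Bsn-202 in the 4 genotypes (left to right as in the key; mean ± SD, n = 6). The share follows the index up to 60.6% in transgenic Grn+/- mouse 1. Reads given to Bsn-201 averaged 474 CPM in transgenic and 621 CPM in nontransgenic mice, a split that moves with the index.

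Transcript shares of the members did not change detectably with Grn. No member was called for usage in Grn+/- against Grn+/+ mice or for the interaction (edgeR, with an adjusted p of 1 for every member), beside 0.0379% and 0.0126% of 7909 genes. Several other members varied in transcript make-up between libraries. The Erc1 transcript of 8760 bases took 38.1% ± 10.5 of Erc1 reads in transgenic and 42.9% ± 7.3 in nontransgenic mice, and that of 8356 bases took 33.5% ± 14.8 in transgenic and 25.4% ± 5.9 in nontransgenic mice. The share of the latter was 64.1% in transgenic Grn+/+ mouse 2 and 60.2% in transgenic Grn+/- mouse 1. In the other transgenic libraries it was 15.0% to 40.6%. The Unc13a transcript of 10255 bases took 79.1% ± 5.9 of Unc13a reads in transgenic and 75.0% ± 1.5 in nontransgenic mice. The Rims1 transcript of 7411 bases held 64.4% ± 4.1 of Rims1 reads over all 24 libraries.

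Within genotypes, Bsn and Pclo moved together more closely than most members. After subtracting group means from log2 CPM, their r over 24 libraries was 0.81, the highest of the 45 pairs of members, whose median was 0.22. Rims1 and Unc13a followed (0.77), then Rims1 and Ppfia3 (0.65) and Rims1 and Rims2 (0.63). Rims2 and Rimbp2 ran opposite to each other (-0.56). After the same subtraction, r with age was -0.78 for Bsn and -0.83 for Pclo. Their r with the mean level of the long transcripts was 0.75 for Bsn and 0.68 for Pclo. The part of age and of long transcripts in the likeness of Bsn and Pclo was not tested. Among 9812 genes of at least 10 CPM, Pclo ranked 10th in likeness to Bsn. The 8 non-member genes most like Bsn were Tln2 (r = 0.90), Plxna4 (0.88), Prrc2c (0.84), Hectd4 (0.84), Map1b (0.83), Map2 (0.83), Huwe1 (0.81) and Ank2 (0.81). Their main transcripts were 6.26 to 15.5 kb long, all above the median of 2794 bases. Libraries of the same age, depth and RNA handling share these values, so r is a description with no test.

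No gene of the other synaptic lists was called for the transgene, and most were below 0. Over all genes 0.11% were called and 48.4% were below 0. Among non-member genes of at least 10 CPM, 1571 of 2233 with main transcripts of 4 to 6 kb were below 0. It was 718 of 915 at 6 to 8 kb and 301 of 358 at 8 to 10 kb. The part of transcript length in the counts of these lists was not tested. With the transgene, none of 25 other active zone genes was called and 19 were below 0, with a median log2 change of -0.02. The smallest p among them were those of Cask (-0.08, SE 0.03), a scaffold that binds neurexin, Cadps (-0.11, SE 0.05), a priming factor for dense-core vesicles, and Ppfia4 (-0.08, SE 0.04), a liprin. All 10 presynaptic calcium channel genes were below 0 (median -0.07, none called), led by Cacna1a, the P/Q-type channel that RIM and RIM-binding protein recruit (-0.15, SE 0.05), Cacna1b, the N-type channel (-0.09, SE 0.04), and the subunit Cacnb4 (-0.14, SE 0.07). Of 20 SNARE machinery genes 17 were below 0 (median -0.05), of 14 vesicle membrane genes 13 (median -0.06), of 14 presynaptic adhesion genes 11 (median -0.05) and of 16 postsynaptic scaffold genes 14 (median -0.04), none called. Their genes of smallest p were Rab3c (-0.15, SE 0.05), a Rab3 partner of RIM, Syngr1 (-0.08, SE 0.03), a vesicle protein, and Nrxn3 (-0.10, SE 0.04), a neurexin. With age, none of these lists held a called gene, beside 0.0219% of all genes. Nrxn3 was at -0.09 per month (SE 0.03) and Cacna1a at -0.10 (SE 0.04), with edgeR adjusted p of 0.844 or more.

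Marker lists of cell types were read beside these values, and Rarres2 was the only marker called for the transgene. Over all genes, 0.11% were called and 48.4% were below 0 with the transgene on average. Oligodendrocyte markers ran in opposite directions in the Grn backgrounds: with the transgene all 12 were below 0 in Grn+/- mice (median log2 change -0.18) and all 12 were above 0 in Grn+/+ mice (median 0.67), none called, giving a median of 0.24 on average. Their interaction was below 0 for all 12 (median -0.88, none called). Their summed level was 1240 to 3122 CPM in transgenic Grn+/- mice, 1343 to 5608 CPM in nontransgenic Grn+/- mice, 1990 to 4246 CPM in transgenic Grn+/+ mice and 1235 to 3037 CPM in nontransgenic Grn+/+ mice. Of 8 choroid plexus and ependymal markers 6 were tested, and Rarres2, a secreted chemoattractant, was called higher with the transgene on average (log2 change 0.78, SE 0.13, edgeR adjusted p = 0.00945) and in Grn+/+ mice (1.17, SE 0.19, adjusted p = 0.0117). The median of the 6 was 1.07 in Grn+/+ mice, with all above 0, and -0.03 in Grn+/- mice, with 3 above 0. Their summed level was low, at 8.29 to 12.03 CPM in transgenic and 6.75 to 20.3 CPM in nontransgenic Grn+/- mice, and 8.49 to 32.2 CPM in transgenic and 6.34 to 14.9 CPM in nontransgenic Grn+/+ mice. All 10 mural and meningeal markers (median 0.18) and all 7 tested blood cell markers (median 0.29) were above 0 with the transgene on average, none called. Mural and meningeal markers summed to 149 to 208 CPM in transgenic and 136 to 182 CPM in nontransgenic Grn+/- mice, and 135 to 185 CPM in transgenic and 121 to 156 CPM in nontransgenic Grn+/+ mice. Blood cell markers summed to 16.3 to 80.8 CPM in transgenic and 13.2 to 153 CPM in nontransgenic Grn+/- mice, and 20.3 to 57.5 CPM in transgenic and 12.4 to 33.5 CPM in nontransgenic Grn+/+ mice. Excitatory neuron markers were below 0 in 10 of 11 cases (median -0.04), and summed to 5446 to 6788 CPM in transgenic and 5763 to 6687 CPM in nontransgenic mice. The inhibitory neuron, oligodendrocyte precursor, astrocyte, microglia and endothelial lists had transgene medians of -0.03 to 0.05, and the striatal neuron and olfactory bulb lists of 0.10 and 0.09, none called. Per month of age, all 12 oligodendrocyte markers (median 0.18), all 10 microglia markers (median 0.12) and all 6 tested choroid plexus and ependymal markers (median 0.47) were above 0, none called. One choroid plexus and ependymal marker was at 0 in every nontransgenic Grn+/+ library, and no other marker of these lists was at 0 throughout a genotype. Their part in the results for Bsn and Pclo was not tested.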

How the data were processed

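Poly-A RNA of frontal cortex from 24 mice was sequenced, 6 per genotype. The authors deposited 1 Salmon table per library with expected counts (estimated reads per transcript), TPM and effective lengths, per the file headers. STAR, SAMtools, Salmon and DESeq2 are listed, with no version, by the submitters' processing notes. The authors' build and annotation: not given in the sources used here. Whether counting used strand is not clear from the labels' protocols, so antisense neighbours may share reads.

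Transcript identifiers were matched without version to GENCODE M21 (GRCm38), which placed 138032 of 149444 transcripts (92.4%). The rest held 1.17% to 1.66% of reads and were left out. For each gene, the deposited expected counts of its transcripts were added up, rounded to whole numbers and tested with edgeR 4.0.16 (R 4.3.3): TMM scaling, its filter on low counts, quasi-likelihood test, two-sided, 1 term per genotype plus sex, all libraries together. Benjamini-Hochberg adjusted p ran over all 18239 genes, and genes were called under 0.05. CPM were computed with TMM-adjusted totals. log2 values used a prior count of 1. Age was fitted as a linear term. Transcript usage was tested with edgeR's diffSpliceDGE on transcripts of at least 5% of a gene, over 7909 genes. Deposited TPM were summed per gene without a test. The scripts were tested on simulated data.

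The members, the gene lists and the marker lists were chosen with earlier results of these data known. One marker of the excitatory neuron list is not reported here and was left out of its sums and counts. All 10 members are named; in other lists the called genes, or else up to 3 of smallest p, with fewer given where lists are grouped. The genes of smallest p for age were named after their values were seen. Replicates are separate mice. Alternatives were DESeq2 1.42.0, limma 3.58.1 voom, upper-quartile scaling, no filter, length-scaled TPM, no sex term, an age term, and each library left out. After seeing the data, an index of truncated transcripts, the level of long transcripts, the libraries of high index and the ages of mice were added. The index used long transcripts of at least 5000 bases and a shorter one of at most 0.67 of that length ending within 200 bases, each with a mean of at least 200 reads and a share of 10% to 90%.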

Additional observations from a re-analysis of the deposited data

Results flagged for a closer look

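In 4 of the 52 sets of 6 libraries examined (the 10 members, the Bsn-202 and Pclo-204 shares and the truncation index in each genotype), a single mouse lay far from the other 5. Chance gives such a gap in about 1 of 20 sets. Rims1 was at 343 CPM in nontransgenic Grn+/- mouse 6, against 240.2 to 269 CPM in the other 5. Rimbp2 was at 234 CPM in nontransgenic Grn+/- mouse 5, against 186 to 200.3 CPM. These mice are the 2 of 8.19 months, the youngest of the series. Rims2 was at 84.7 CPM in transgenic Grn+/- mouse 1, which also had the highest truncation index, against 97.8 to 106 CPM in the other 5. It was at 116 CPM in transgenic Grn+/+ mouse 6, against 98.9 to 104 CPM.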

How the results depend on the processing

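No paired analysis was possible because replicate numbers were given in accession order and pair no mice. The transgene log2 change of Bsn stayed below 0 in all 37 alternatives, but its call was lost with length-scaled TPM (-0.21), the truncation index as a term (-0.26), without the 5 libraries of high index (-0.27), with the long-transcript level as a term (-0.19), without the mice of 8.19 months (-0.23) and in mice of 9.44 and 10.07 months alone (-0.28). Leaving out 1 library at a time gave -0.30 to -0.25. The age change of Bsn was no longer called with length-scaled TPM (-0.17), no sex term (-0.16), the long-transcript level (-0.10), without the high-index libraries (-0.16), without the mice of 8.19 months (-0.19) or at the 2 middle ages alone (-0.26), and ran from -0.19 to -0.16 over omissions of 1 library. For Pclo it was no longer called with length-scaled TPM (-0.24), the long-transcript level (-0.20), without the mice of 8.19 months (-0.25) or at the 2 middle ages (-0.24). The alternatives that drop mice test fewer samples, and for the others the cause was not tested.

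Counts of genes called moved by over 1.5 times in these cases. The average transgene comparison called 20 genes, against 61 with DESeq2, 8 with the index and 8 with age and index as terms, 10 without the high-index libraries, 9 without the mice of 8.19 months and 3 at the middle ages. In Grn+/- mice it called 4, against 9 with DESeq2, 1 without the mice of 8.19 months and 2 with no filter, with length-scaled TPM, with an age term, with age and index terms or at the middle ages, and 2 to 4 without 1 library. In Grn+/+ mice it called 6, against 27 with DESeq2 and 1 at the middle ages, and 4 to 7 without 1 library. Grn+/- against Grn+/+ called 4, against 9 with DESeq2 and 2 without the mice of 8.19 months. The interaction called 0, against 3 with DESeq2 and 2 at the middle ages. Male minus female called 13, against 22 with DESeq2. Transgene by sex called 0, against 2 with DESeq2 and 1 without the high-index libraries. Age called 4, against 12 with DESeq2, 8 with the index, 2 with no sex term, 2 without the high-index libraries, 1 without the mice of 8.19 months and 0 with the long-transcript level, with length-scaled TPM or at the middle ages, and 1 to 4 without 1 library. Usage called 1 gene for the interaction, against 2 with limma and 2 with transcripts of at least 1%. Of 2803 other alternative values of single members, 2773 kept their side of the threshold and their direction or stayed within 1 SE, 27 changed sign by more than 1 SE without being called, and 3 became called, all for Bsn in Grn+/+ mice (DESeq2, age term, age and index terms). Depth did not limit the members, each with at least 2877 reads in every library. The spread between mice sets the errors, and p-values cover that spread only.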
